A study of Homo sapiens with 26 samples.

Results

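Tetraspanins are small membrane proteins with 4 passes through the membrane that gather integrins, growth factor receptors and immunoglobulin-domain proteins into membrane microdomains and are abundant on exosomes. The transmembrane 4 L6 family (the TM4SF genes) has the same 4-pass layout but is not related to them by sequence. Proteins of both families act in adhesion, migration and receptor trafficking of epithelial and tumour cells, and CD9 and CD82 are known as suppressors of cell motility. Described here are 9 genes of the 2 families: TM4SF1, TM4SF4, TM4SF18 and TM4SF20 of the L6 family, and TSPAN1, TSPAN8, TSPAN13, CD9 and CD82 of the tetraspanins. They were taken by symbol, with all their probe sets, and gave 16 of the 54675 probe sets and 9 of the 19539 genes on the array. The genes were chosen by their measured log values over the 9 time groups, so their differences from untreated cells are given as a description, without a test. Counts of their calls, given later beside those of all genes, are a description too.

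RNA came from A549 cells, an established human lung adenocarcinoma line. Cells kept for 24 h without serum received porcine TGF-beta 1 at 5 ng/mL, a cytokine that drives epithelial cells towards a mesenchymal state. The groups were starved cells after short (0.5, 1 and 2 h), intermediate (4, 8 and 16 h) and long (24 and 72 h) exposure to TGF-beta 1, and starved cells left untreated. Each group had 3 arrays, from experiments numbered 1 to 3, except the 2 h group with 2, from experiments 1 and 2. No untreated cells of matching age are among the samples used here, so treatment and time in culture cannot be told apart, and every comparison with untreated cells shares the same 3 arrays.

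Levels are log2 values with an offset of 100 inside the log, on which a zero signal lies at 6.64 and the median of every array at 7.96. The offset makes fold changes of weak signals too small. The arrays come from bulk RNA, in which fewer cells of a kind and less RNA per cell cannot be told apart. Between 28834 and 32875 probe sets were detected per array. The 3'/5' ratio of actin, a measure of RNA integrity, averaged 1.01 at 72 h, 1.00 at 24 h and 1.10 in untreated cells, and its part in the results was not tested. Genes known to respond to the ligand did so: between 72 h and untreated cells the log2 difference was 2.63 for SMAD7 and -4.26 for CDH1, which encodes E-cadherin (limma, adjusted p of 7.5e-06 and 4.1e-14). The epithelial keratins KRT8, KRT18 and KRT7 averaged between 13.57 and 15.21 in untreated cells, whereas KRT19 was above the array median on fewer than 2 arrays and was not tested. Of the 6 alveolar type 2 markers on the array, SFTPB, SFTPD, NKX2-1 and LAMP3 failed the same filter, and SFTPC and ABCA3 were weak, at 8.28 and 8.35 in untreated cells. Of the markers of leukocytes, endothelium and fibroblasts, LUM was the one called at 72 h, 2.61 log2 units higher (limma, adjusted p = 6.2e-08).

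One doubt over the numbering touches the untreated arrays. Deviations from the group means over all genes tested had a median correlation of 0.31 between untreated array 2 and the treated arrays of experiment 3, and of -0.20 with those of experiment 2. Untreated array 3 had medians of -0.02 with experiment 3 and 0.03 with experiment 2. The group means do not depend on this numbering, and differences within an experiment at 72 h are given with it exchanged too.

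The 4 genes with the largest differences were TM4SF20, TSPAN8, TM4SF4 and TM4SF18. The stretches of 250 bases before their RefSeq start sites (GRCh38.p14) are shown 5′ to 3′. That of TM4SF1 was added, so that the strongly lowered genes can be read beside their neighbour. TM4SF1 lies between TM4SF18 and TM4SF4 on chromosome 3 and differed less on its brightest probe set. TM4SF20 is at chr2:227379307-227379556 (minus strand), TSPAN8 (the start site named first) at chr12:71158000-71158249 (minus strand), TM4SF4 at chr3:149474447-149474696 (plus strand), TM4SF18 at chr3:149333637-149333886 (minus strand) and TM4SF1 at chr3:149377650-149377899 (minus strand). The RefSeq gene TM4SF20 spans chr2:227362038-227381647, so its window lies inside the gene span. Capitals mark the 5-letter SMAD box CAGAC, which reads GTCTG on the other strand.
TM4SF20: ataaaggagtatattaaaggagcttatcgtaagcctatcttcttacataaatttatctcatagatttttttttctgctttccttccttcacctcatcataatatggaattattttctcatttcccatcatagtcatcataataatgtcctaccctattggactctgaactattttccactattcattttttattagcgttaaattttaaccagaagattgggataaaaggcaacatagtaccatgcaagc
TSPAN8: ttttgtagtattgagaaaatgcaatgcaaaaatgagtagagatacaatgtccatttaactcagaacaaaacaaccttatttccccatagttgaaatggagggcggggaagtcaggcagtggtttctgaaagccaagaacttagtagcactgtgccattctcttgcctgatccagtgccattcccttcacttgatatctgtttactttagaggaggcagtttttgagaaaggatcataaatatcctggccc
TM4SF4: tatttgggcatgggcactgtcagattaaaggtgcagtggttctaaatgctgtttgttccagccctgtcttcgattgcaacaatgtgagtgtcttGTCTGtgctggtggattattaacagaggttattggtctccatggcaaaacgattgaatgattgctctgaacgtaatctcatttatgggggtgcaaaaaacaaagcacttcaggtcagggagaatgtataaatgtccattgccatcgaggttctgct
TM4SF18: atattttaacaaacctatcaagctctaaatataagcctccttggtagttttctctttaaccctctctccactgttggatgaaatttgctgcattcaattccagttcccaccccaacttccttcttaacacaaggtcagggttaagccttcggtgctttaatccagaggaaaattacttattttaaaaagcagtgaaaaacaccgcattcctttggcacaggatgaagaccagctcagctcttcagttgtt
TM4SF1: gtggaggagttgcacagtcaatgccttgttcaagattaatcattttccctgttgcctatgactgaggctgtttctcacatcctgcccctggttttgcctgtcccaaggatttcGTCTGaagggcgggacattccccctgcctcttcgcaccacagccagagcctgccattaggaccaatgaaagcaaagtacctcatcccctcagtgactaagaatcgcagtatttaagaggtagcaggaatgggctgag

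All 9 genes were found among the RefSeq promoters, with 13 start sites in all. The window of CD82, like that of TM4SF20, lay inside the gene span, as did all CD9 windows but the first. The second TSPAN8 window ran into its gene and overlapped the first, so the windows are not all separate. CAGAC, on either strand, occurred in 3 of those 13 windows, those of TM4SF1 and TM4SF4 and the first of 4 for CD9, and in 38% of all 35116 RefSeq windows of this length. The AP-1 motif TGANTCA was in 0 of the 13 and in 6.57% of all windows. The E2 box CAGGTG, the letters bound by SNAI and ZEB factors, was in one window of TSPAN13 and one of CD9, and in 17.5% of all. Each printed window with a match held a single one, so no matches overlapped there. The windows also differed in base composition: G and C made up 31.2% of the TM4SF20 window, 40.8% for TSPAN8, 43.2% for TM4SF4, 40% for TM4SF18, 50.8% for TM4SF1, 51.2% for TSPAN1, 70.0% for TSPAN13 and 77.2% for CD82. The second TSPAN8 window had 36% and the 4 CD9 windows 44.8% to 76.8%, beside a median of 58% over all windows.

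TM4SF20, an L6 protein known for a role in the regulated cleavage of the membrane-bound factor CREB3L1, had the largest difference of the 9 genes. Its levels in untreated cells were 13.57, 14.53 and 14.31 in experiments 1, 2 and 3. At 0.5, 1 and 2 h every array read between 14.01 and 14.34, inside the untreated range. At 4 h the arrays read 12.23, 13.12 and 14.12, so that experiment 3 still lay within the untreated range while the other two had left it. Levels of 10.25, 10.77 and 12.22 at 8 h were all below the untreated arrays. They were 8.96, 8.67 and 9.55 at 16 h, and 7.83, 8.20 and 9.39 at 24 h. At 72 h they were 7.84, 7.91 and 8.52, the lowest of them near the array median. The mean at 72 h was thus 8.09 ± 0.376, against 14.14 ± 0.500 in untreated cells (SD, n = 3 each), a log2 difference of -6.04 (SE 0.446) or 66.0-fold lower. With the offset removed from both means, 0.965% of the untreated signal was left. Among 14771 genes tested, this was the 4th lowest difference at 72 h, and that of -5.66 at 24 h was the 2nd lowest.

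TSPAN8, a tetraspanin of gastrointestinal epithelium and carcinomas that associates with integrins, was lowered later. Untreated cells gave 12.76, 14.10 and 13.52, and every array from 0.5 to 4 h lay between 13.22 and 14.07. At 8 h the levels were 12.40, 12.08 and 13.47, and the groups overlapped because the level of experiment 3 lay inside the untreated range. At 16 h they were 9.61, 9.42 and 10.15, all below untreated cells. The step between 8 and 16 h, -2.92 on the log2 scale, was its largest between consecutive times. Levels of 8.48, 8.43 and 9.62 at 24 h and of 8.58, 8.34 and 9.32 at 72 h overlapped each other. The mean of 8.75 ± 0.507 at 72 h stood against 13.46 ± 0.673 in untreated cells (SD, n = 3 each), a difference of -4.71 (SE 0.375) or 26.2-fold, with 2.95% of the untreated signal left.

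TM4SF4, an L6 protein of liver, intestine and pancreas described as a regulator of cell proliferation, reached a like difference by a slower course. Its untreated levels were 14.33, 14.59 and 14.55, and all arrays up to 4 h stayed between 14.32 and 14.60. At 8 h the levels were 13.71, 13.97 and 14.39, which still touched the untreated range through experiment 3. At 16 h they were 12.39, 12.72 and 13.57. From that time on no array overlapped the untreated ones. At 24 h experiment 3 stood apart, with 13.34 beside 11.29 and 11.42. The 24 h arrays of experiments 1 and 3 are both marked r in the deposited table. The 24 h difference of -2.47 (SE 0.401) became -3.14 without the array of experiment 3. At 72 h the levels were 9.76, 8.93 and 10.66, below every 24 h array, and their mean was 9.78 ± 0.865, against 14.49 ± 0.142 in untreated cells (SD, n = 3 each), a difference of -4.71 or 26.1-fold. Of the 9 genes, TM4SF4 had the largest difference between 72 and 24 h, -2.23.

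TM4SF18 has no well-described function in epithelium. It began to differ early, and its untreated arrays were nearly identical at 10.12, 10.13 and 10.12. At 0.5 h the levels were 10.18, 10.18 and 9.84, at 1 h 10.25, 10.18 and 9.71, and at 2 h 10.05 and 9.99. At 4 h they were 9.30, 9.50 and 9.55, all well below the untreated ones. Levels were 8.55, 8.58 and 9.02 at 8 h, and 7.77, 8.41 and 8.37 at 16 h. They were 7.88, 8.03 and 8.46 at 24 h and 7.70, 7.82 and 7.58 at 72 h. The last group lay below every 24 h array. The mean at 72 h was 7.70 ± 0.118, against 10.12 ± 0.004 in untreated cells (SD, n = 3 each), a difference of -2.42 (SE 0.180) or 5.35-fold lower. Since the 72 h arrays were under the array median, the offset weighs on this fold: with it removed and a floor of 32 set, the difference was -3.23. A second probe set of the gene gave -1.86 at 24 h and -1.58 at 72 h.

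**Figure D1:**
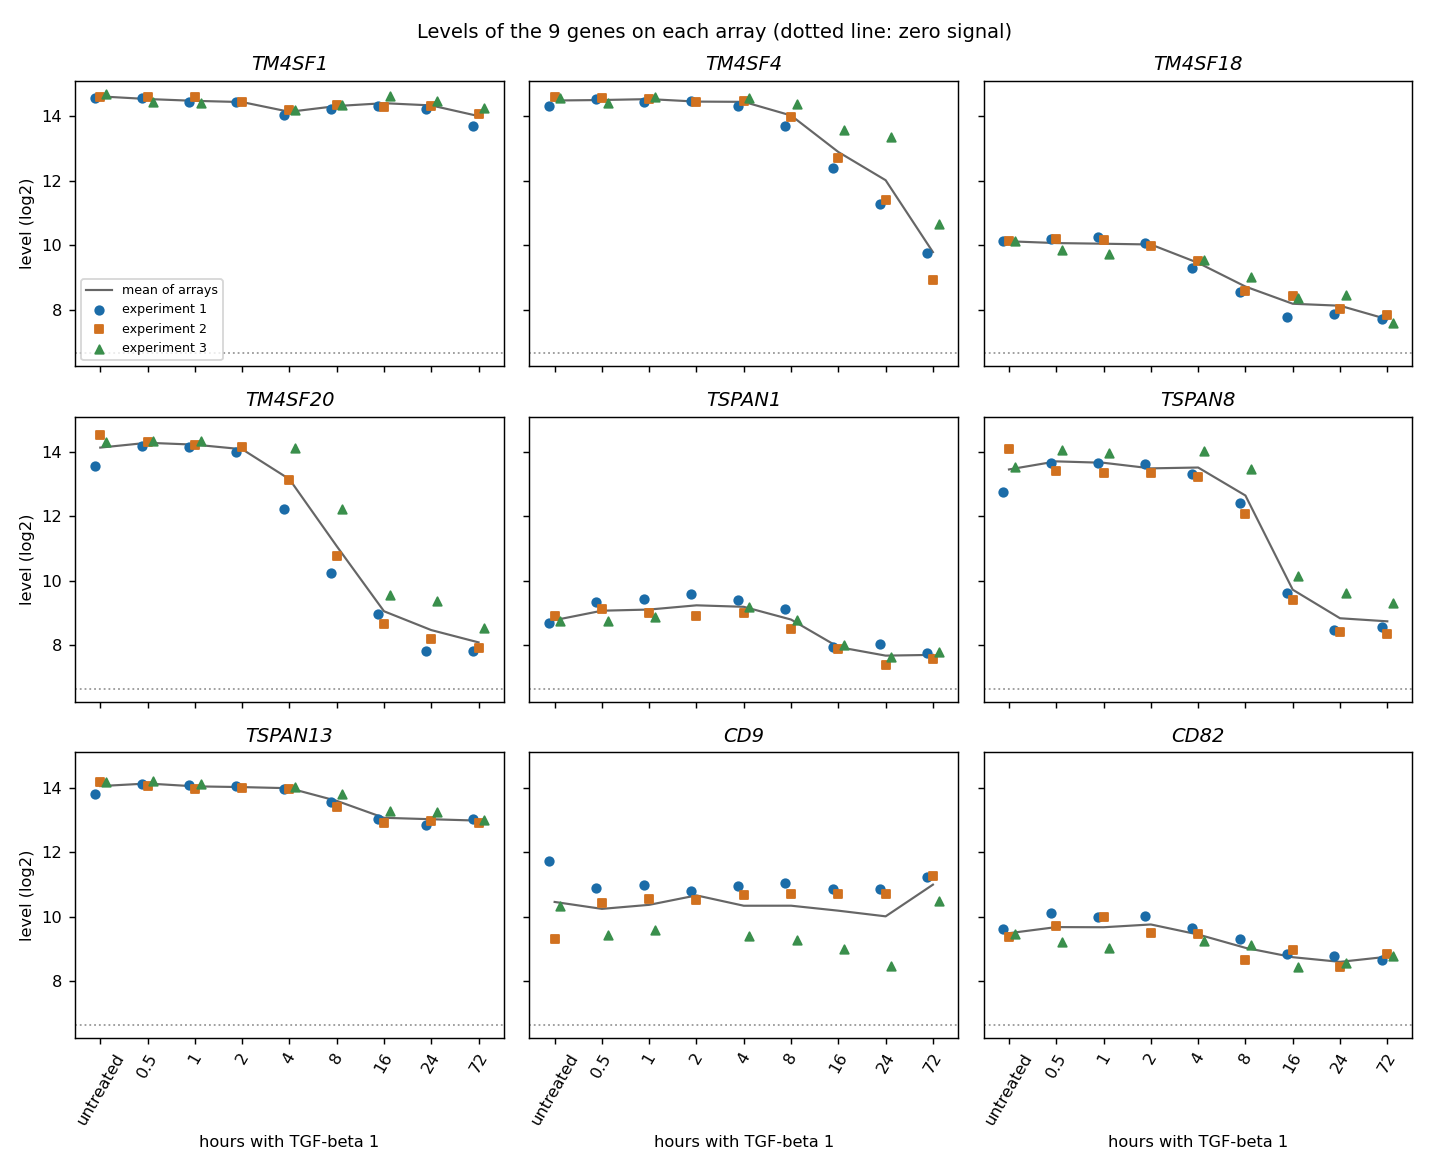
Levels (log2) of the 9 genes on each of the 26 arrays, from untreated cells to 72 h with TGF-beta 1. Symbols mark the experiment, the line joins the group means, and the dotted line is a zero signal at 6.64. The means of TM4SF20 and TM4SF18 were past the midpoint between the untreated and 72 h means from 8 h on, that of TSPAN8 from 16 h and that of TM4SF4 from 24 h. Experiment 3 lay highest for TM4SF20, TSPAN8 and TM4SF4 and lowest for CD9 at every time from 4 to 72 h.

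Experiment 3 was the highest of the 3 at all 5 times from 4 to 72 h for TM4SF20, TSPAN8 and TM4SF4, and at 4 of 5 for TSPAN13. Of the other 2942 genes called lower at 24 h, 238 (8.09%) had experiment 3 highest at all 5 times, and of all 14771 genes tested 627 (4.24%). Within experiments 1, 2 and 3 the 72 h differences of TM4SF20 were -5.73, -6.61 and -5.79, those of TSPAN8 -4.18, -5.75 and -4.21, and those of TM4SF4 -4.57, -5.66 and -3.89. With untreated arrays 2 and 3 exchanged, the values for experiments 2 and 3 were -6.40 and -6.002 for TM4SF20, -5.18 and -4.78 for TSPAN8, and -5.62 and -3.93 for TM4SF4. Every experiment thus showed a large difference in the same direction by 72 h.

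TM4SF1, the founding L6 antigen, which is known from tumour cells and endothelium, had a small difference with 2 low points. On the brightest of its 5 probe sets the levels were 14.57, 14.59 and 14.69 in untreated cells and 14.04, 14.19 and 14.19 at 4 h. At 8 h they were 14.24, 14.36 and 14.35, above every 4 h array. At 16 h they were 14.32, 14.28 and 14.62, with the third inside the untreated range, and at 24 h 14.22, 14.31 and 14.48. At 72 h they were 13.71, 14.07 and 14.24. The log2 difference from untreated cells was -0.48 after 4 h, -0.28 after 24 h and -0.61 after 72 h (SE 0.103), with -0.30 and -0.21 in between. The 72 h one was -0.46 without the array of experiment 1. On the other 2 bright sets the differences were larger, -0.57 and -0.66 at 4 h and -0.85 and -1.15 at 72 h. Both remaining sets were weak. One was lower in all 8 treated groups, from 0.5 h on, with differences between -1.35 and -0.93 and no overlap with untreated cells. The other differed by -1.06 at 0.5 h without overlap and by 0.32 at 72 h with overlap, so the 5 sets did not give one course.

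TSPAN1, a tetraspanin of epithelial cancers, had higher levels at 4 h, though it was not called higher there, and was lower from 16 h on. Its levels in untreated cells were 8.68, 8.91 and 8.76. They were 9.40, 8.99 and 9.19 at 4 h, all above the untreated arrays, a difference of 0.41 (SE 0.202). Within experiments 1, 2 and 3, as labelled, the 4 h difference was 0.72, 0.09 and 0.43. Arrays at 0.5, 1 and 2 h overlapped the untreated ones. By 8 h the difference of means was 0.02. By 16 h the levels were 7.94, 7.88 and 8.02, all below. They stayed there at 24 h, with 8.04, 7.38 and 7.63, and at 72 h, with 7.76, 7.57 and 7.78. The difference was -1.10 at 24 h and -1.08 at 72 h. The means at 24 and 72 h lay below the array median, and with the offset removed and a floor of 32 set the differences were -1.74 and -1.65.

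TSPAN13, a tetraspanin that binds voltage-gated calcium channels, had levels of 13.03, 12.90 and 13.01 at 72 h, against 13.81, 14.18 and 14.17 in untreated cells, a difference of -1.07 (SE 0.115) or 2.10-fold lower. It had reached -0.98 by 16 h and was -1.03 at 24 h, so that its course was flat over the last 3 times. CD82, also called KAI1, is a tetraspanin known as a metastasis suppressor. It was measured by 1 probe set, of a kind marked as able to cross-hybridize. Its levels were 8.66, 8.83 and 8.77 at 72 h, against 9.61, 9.38 and 9.47 in untreated cells, a difference of -0.73 (SE 0.240). At 24 h, with 8.78, 8.45 and 8.56, the difference was -0.89, and the groups did not overlap from 8 h on. Both genes were lower within each experiment at 24 and 72 h.

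CD9, a tetraspanin of epithelial cells and exosomes that binds EWI proteins and integrins, was the one of the 9 genes that was not lower at 72 h. Its untreated arrays were far apart, at 11.74, 9.30 and 10.33. Experiments 1 and 2 gave levels between 10.41 and 11.06 in every group from 0.5 to 24 h. Experiment 3 gave 9.42, 9.58, 9.39, 9.27, 8.99 and 8.47 at 0.5, 1, 4, 8, 16 and 24 h, below both others each time. At 72 h the levels were 11.24, 11.25 and 10.48, the last the highest of any array of experiment 3. The mean at 72 h was 10.99 ± 0.440, against 10.46 ± 1.22 in untreated cells (SD, n = 3 each). The difference of 0.54 (SE 0.667) was smaller than its error, and the groups overlapped.

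The 24 h difference of CD9 was -0.45, which turned to 0.32 without the 24 h array of experiment 3, one of those marked r. The 72 h difference was 1.18 without untreated array 1, -0.04 without untreated array 2 and 0.48 without untreated array 3. Within experiments 1, 2 and 3 the 72 h differences were -0.49, 1.95 and 0.15. With untreated arrays 2 and 3 exchanged they were -0.49, 0.92 and 1.19. Neither numbering gave 3 experiments with one direction. The other 2 probe sets of CD9 were near or below the array median and lay above it on 0 and 9 of 26 arrays.

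Of the 9 genes, 8 were called lower at 24 h and 8 at 72 h by limma at an adjusted p under 0.05, beside 20% of all genes tested at either time. None was called at 0.5, 1 or 2 h, and none had an unadjusted p under 0.05 there (limma, beside 0.135%, 0.542% and 3.11% of all genes called). Lower calls numbered 2 at 4 h (3.08% of all genes), 4 at 8 h (11.6%), 7 at 16 h (18.5%) and 2 for 72 h against 24 h (4.45%). Higher calls at 4 h numbered 0, beside 6.09% of all genes, so the 4 h rise of TSPAN1 was not called. No array overlap with untreated cells, on the lower side, was found for 8 genes at 24 h (22.9% of all genes) and 8 at 72 h (25.5%). These counts follow from how the genes were chosen, so they describe the 9 genes and are not a test of them. All 9 passed the filter on weak signals. Their median difference was -1.10 at 24 h and -1.08 at 72 h, beside -0.05 and -0.02 over all genes tested.

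The genes differed in when their means passed the midpoint of the change up to 72 h. A mean past it could still lie well above the 72 h mean, as for TM4SF20, at 11.08 after 8 h and 8.09 after 72 h. The mean level was past the midpoint between the untreated and 72 h means, and stayed past it at all later times, from 8 h on for TM4SF18, TM4SF20 and CD82, from 16 h for TSPAN1, TSPAN8 and TSPAN13, from 24 h for TM4SF4 and at 72 h for TM4SF1, which had also been past it at 4 h. CD9 had no lasting departure from the untreated range. Over the 9 group means TM4SF20 correlated with TSPAN13 at r = 0.993, with TM4SF18 at 0.992 and with TSPAN8 at 0.968, and with TM4SF4 at 0.877. Correlations of CD9 with the other 8 genes lay between -0.434 and 0.129. All these means come from the same 26 arrays, so the correlations are a description. Over the 26 arrays, the genes most like TM4SF20 were NDNF (r = 0.990), a secreted neurotrophic protein, CYP4F3 (r = 0.989), a leukotriene-degrading enzyme, and ALDH3A2 (r = 0.988), a fatty aldehyde dehydrogenase. The genes most like CD9 over the arrays were LOC440995 (r = 0.870), RAB13 (r = 0.863) and DMKN (r = 0.857). Their 72 h differences were -0.095, 0.119 and -0.491, beside 0.536 for CD9. Levels of CD9 differed widely between experiments within a group, so this likeness is not one of courses in time.

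The other genes of the 2 families moved in both directions. Of 30 listed, 28 were on the array and 25 were tested. They are what was left of the families once the 9 genes, 8 of them called lower at 72 h, were taken out. The balance of directions below is thus partly set by that choice and does not describe the whole families. Of these, 17 changed at some time (moderated F test of limma, adjusted p under 0.05, beside 47.7% of all genes). At 72 h 8 rose and 6 fell, beside 18.3% and 20% of all genes, with a median difference of 0.01. At 24 h 7 rose and 6 fell (15.2% and 20% of all genes). At 4 h 3 rose and 0 fell (6.09% and 3.08% of all genes, with 5 at an unadjusted p under 0.05 in either direction). In the tests against untreated cells at 0.5, 1 and 2 h none passed, and 0, 2 and 0 had an unadjusted p under 0.05.

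The largest rise was that of TSPAN2, a tetraspanin known from oligodendrocytes and from invasive lung carcinoma. It averaged 11.74 ± 0.241 at 72 h and 10.63 ± 1.53 at 24 h, against 7.23 ± 0.291 in untreated cells (SD, n = 3 each). The log2 differences were 4.51 at 72 h and 3.41 at 24 h (limma, adjusted p of 4.9e-07 and 2.4e-05). The largest falls were those of TSPAN7, a brain tetraspanin (-3.92, adjusted p = 6.3e-11), and UPK1B, a uroplakin of the bladder lining (-3.75, adjusted p = 9.4e-12), both at 72 h and by limma. At 72 h TM4SF5, an L6 protein of liver and intestine, fell by 2.64 and TSPAN4, a tetraspanin of migrasomes, fell by 2.17 (limma, adjusted p of 2.5e-06 and 1.3e-09). These 4 had fallen at 24 h as well, with differences of -3.64 for TSPAN7, -2.52 for UPK1B, -2.19 for TM4SF5 and -1.95 for TSPAN4 (limma, adjusted p of 2.8e-10, 5.7e-09, 3.1e-05 and 8.5e-09). The 72 h difference of TSPAN12, a co-receptor of Norrin and FZD4, was 1.05 (limma, adjusted p = 0.010). Its rise was earlier and larger at 24 h, 1.84 (limma, adjusted p = 6.4e-05), and its 72 h call was lost without untreated array 1 (0.78, limma, adjusted p = 0.073).

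At 4 h the 3 genes that rose were TSPAN12 by 1.15, TSPAN14, a partner of the protease ADAM10, by 0.77, and CD151, a laminin-integrin partner, by 0.53 on the log2 scale (limma, adjusted p of 0.020, 0.015 and 0.0056). The 4 h calls of all 3 could be lost with one array fewer. For TSPAN12 the adjusted p from limma was 0.12 without untreated array 1, and 0.071 and 0.065 without the 4 h arrays of experiments 1 and 3. For TSPAN14 it was 0.059 without untreated array 2, and 0.094 and 0.11 without the 4 h arrays of experiments 1 and 2. For CD151 it was 0.052 without the 4 h array of experiment 2. CD151 stood 1.21 higher at 24 h and 0.86 higher at 72 h (limma, adjusted p of 5.4e-08 and 5.4e-06). CD63 and CD81, the exosome tetraspanins usually named beside CD9, were picked after their values were seen. CD63 averaged 14.19 ± 0.021 at 72 h, against 14.17 ± 0.247 in untreated cells, and CD81 12.88 ± 0.089 against 12.92 ± 0.221 (SD, n = 3 each). Neither passed the test at 4, 24 or 72 h.

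**Figure D2:**
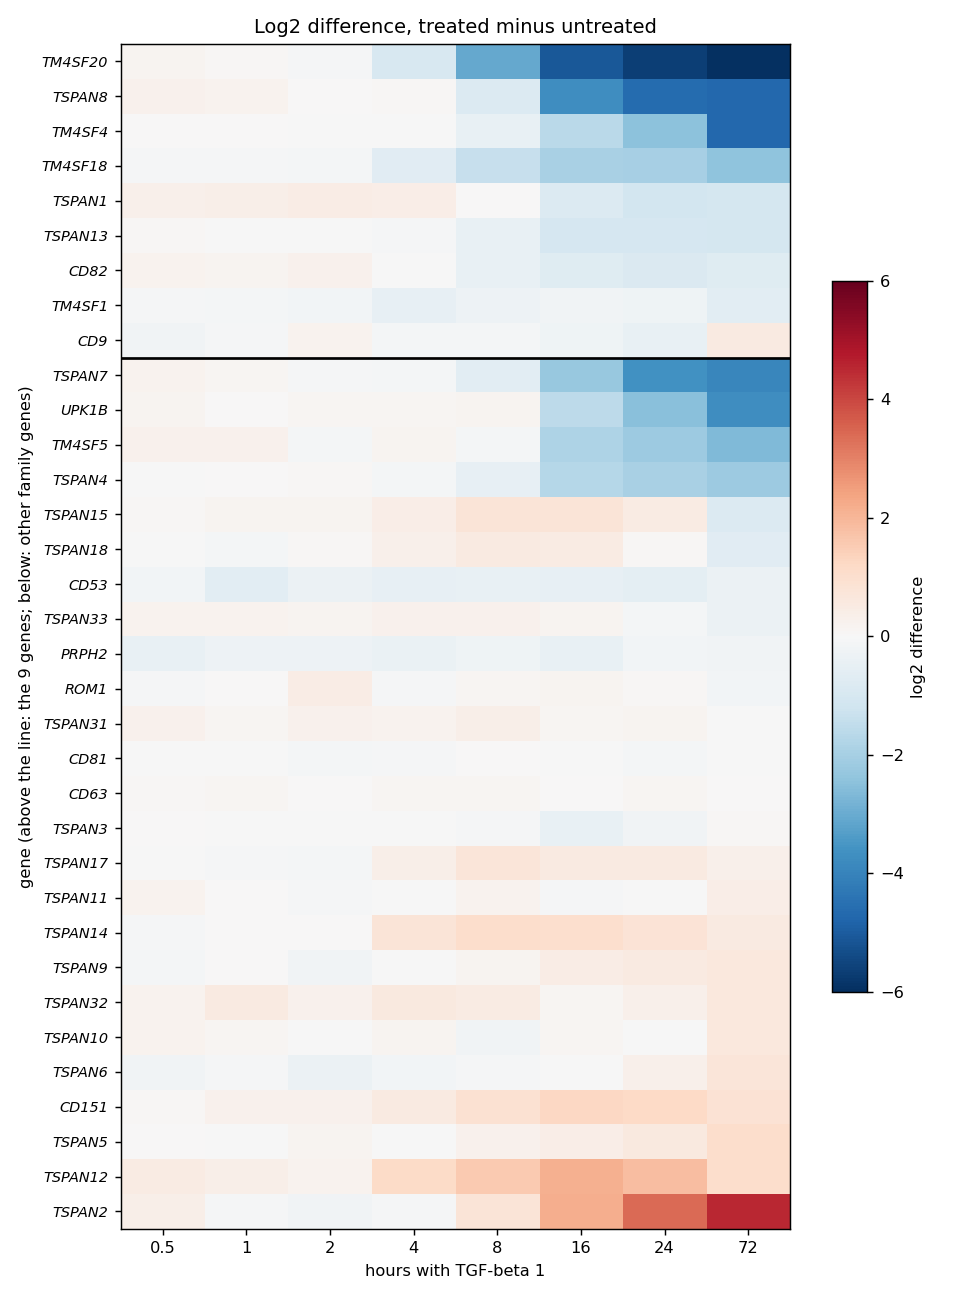
Log2 difference from untreated cells at each of 8 times for the 9 genes (above the line) and for the 25 other tetraspanin and L6 genes tested (below it), ordered within each block by the 72 h difference. Blue is lower and red higher with TGF-beta 1. The deepest blues are TM4SF20 from 8 h on, and TSPAN8, TM4SF4, TSPAN7 and UPK1B from 16 or 24 h on. The deepest red is TSPAN2, at 4.51 at 72 h.

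Between 72 and 24 h, 2 of the 25 other family genes rose and 3 fell (limma, adjusted p under 0.05, beside 4.67% and 4.45% of all genes), and the count of 5 became 8 with the experiment as a block. The 5 were TSPAN3, TSPAN10, TSPAN15, TSPAN18 and UPK1B. TSPAN15, another partner of ADAM10, averaged 9.05 ± 0.239 at 72 h and 10.35 ± 0.358 at 24 h (SD, n = 3 each), a difference of -1.29 (limma, adjusted p = 0.00072). Its differences from untreated cells were -0.81 at 72 h and 0.48 at 24 h (limma, adjusted p of 0.0056 and 0.097). The count of 5 became 1 without the 3 arrays marked r in the deposited table, those of experiment 3 at 8 h and of experiments 1 and 3 at 24 h.

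TM4SF18, TM4SF1 and TM4SF4 are consecutive protein-coding genes of chromosome 3 in RefSeq (GRCh38.p14). To describe their surroundings, 5 genes to either side were added after the values were seen. CP, the copper protein ceruloplasmin, which is the next gene before TM4SF18, had a larger difference than any of them. It averaged 7.65 ± 0.406 at 72 h and 9.81 ± 0.725 at 24 h, against 13.996 ± 0.363 in untreated cells (SD, n = 3 each), differences of -6.35 and -4.18 (limma, adjusted p of 3.1e-13 and 3.7e-10). On the other side WWTR1, which encodes the coactivator TAZ, was 0.51 higher at 72 h (limma, adjusted p = 0.00081). Of the 10 neighbours 1 was higher and 5 lower at 24 h (limma, beside 15.2% and 20% of all genes), with a median difference of -0.41. At 72 h 2 were higher and 2 lower, near the 18.3% and 20% of all genes, and the other lower one, GYG1, differed by -0.38 (limma, adjusted p = 0.0043). CP and TM4SF4 also shared a further difference between 72 and 24 h, of -2.17 and -2.23. The large differences at this place were thus those of CP, TM4SF18 and TM4SF4. TM4SF1, in between, stood at -0.61 on its brightest probe set and at -0.85 and -1.15 on the other 2 bright ones.

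**Figure D3:**
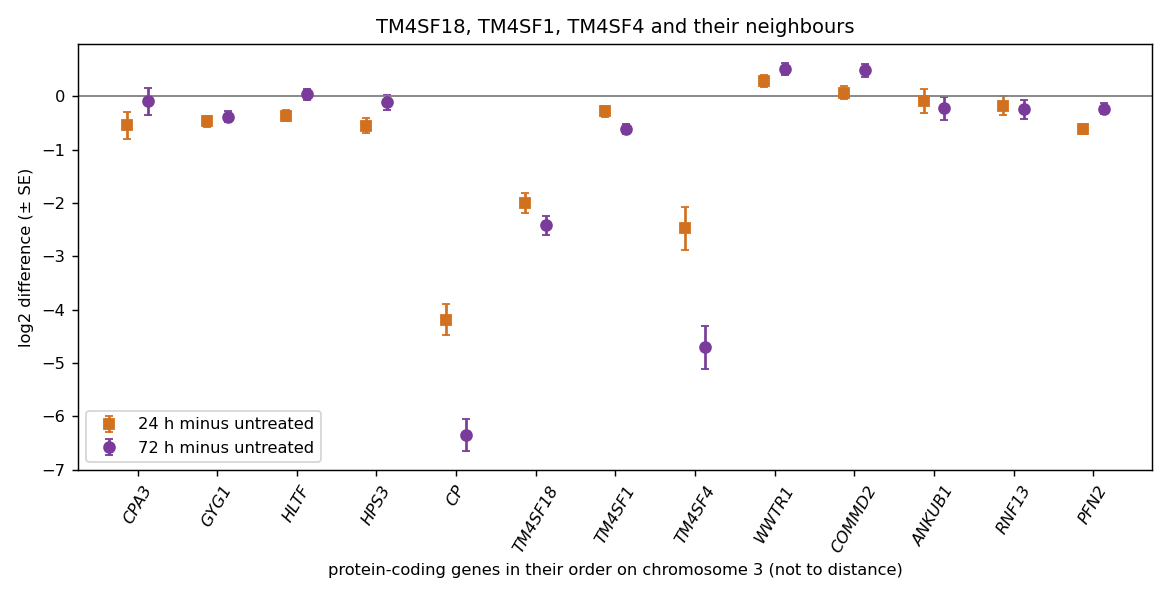
Log2 differences from untreated cells (± SE of the limma fit) at 24 h (squares) and 72 h (circles) for TM4SF18, TM4SF1, TM4SF4 and 5 protein-coding genes on either side, in their order on chromosome 3 and not to distance. CP, TM4SF18 and TM4SF4 lie lowest at both times. The remaining genes lie between -0.61 and 0.51, with TM4SF1 shown by its brightest probe set.

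Genes for reported partners of these proteins, listed as 18 integrins, receptors, proteases and adapters, were all tested. At 72 h 9 rose and 3 fell (limma, adjusted p under 0.05), beside 18.3% and 20% of all genes, with a median difference of 0.26. At 24 h 10 rose and 3 fell, beside 15.2% and 20%. The share that fell was thus near that of all genes at both times. HBEGF, the membrane-bound growth factor that associates with CD9, averaged 11.09 ± 0.288 at 72 h, against 8.21 ± 0.020 in untreated cells, and EGFR, the receptor it binds, 14.09 ± 0.076 against 11.94 ± 0.327 (SD, n = 3 each). These rises were of 2.88 and 2.14 log2 units (limma, adjusted p of 1.4e-08 and 3.5e-10). PTGFRN, the EWI protein CD9P-1 that binds CD9 and CD81, rose by 1.87 and the tight junction protein CLDN1 by 1.30 (limma, adjusted p of 1.2e-11 and 2.6e-06). EPCAM, an epithelial adhesion molecule found in TSPAN8 complexes, fell by 2.72 (limma, adjusted p = 1.1e-07).

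Among the integrins, ITGA3 rose by 0.93 at 72 h and by 1.85 at 24 h (limma, adjusted p of 0.00027 and 4.0e-08). ITGA6 and ITGB4 were picked after their values were seen. ITGA6 was 0.75 higher at 72 h and 0.87 at 24 h (limma, adjusted p of 3.9e-05 and 6.0e-06). ITGB4 was 1.57 higher at 24 h (limma, adjusted p = 1.5e-06). At 72 h ITGB4 averaged 9.72 ± 0.209, against 9.95 ± 0.117 in untreated cells (SD, n = 3 each), and did not pass the test.

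**Figure D4:**
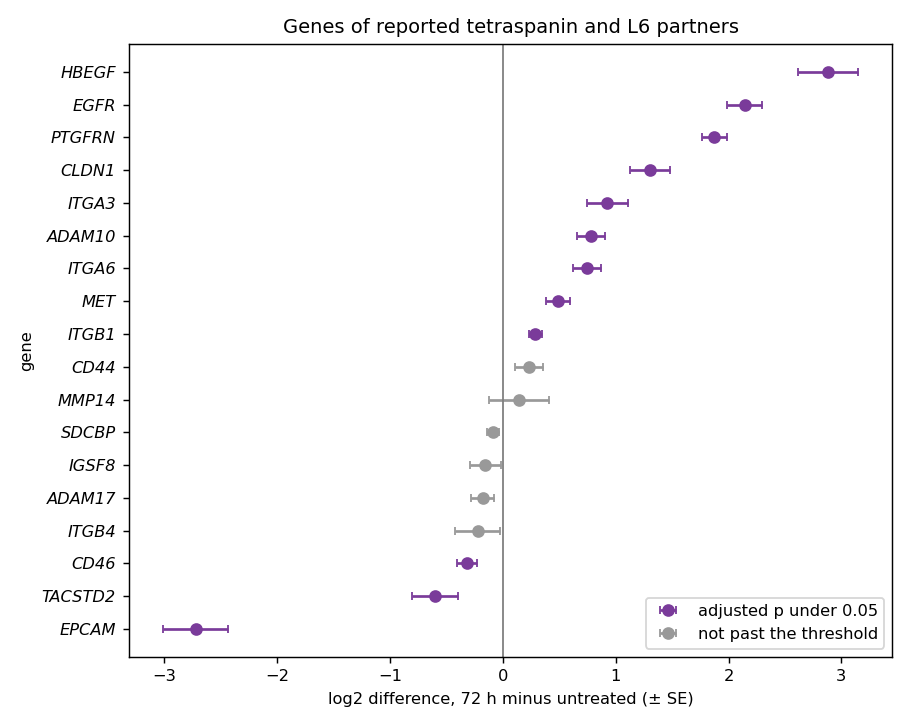
Log2 differences between 72 h and untreated cells (± SE of the limma fit) for 18 genes of reported tetraspanin and L6 partners, ordered by size, with the 12 that passed an adjusted p under 0.05 in purple. HBEGF (2.88), EGFR (2.14) and PTGFRN (1.87) were the largest rises and EPCAM (-2.72) the largest fall.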

How the data were processed

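RNA was hybridised to 26 Affymetrix HG-U133 Plus 2.0 arrays in 9 groups. The authors deposited log10 values, which per the file headers are log10(max(x+50,0)+50) of trimmed means (about 20% trimmed) of perfect-match minus mismatch differences from readaffy, at a scale constant of 1000, quantile-normalized against one array. They were converted to log2, and 1.23% lay at the floor of 5.64. The deposited table's p-values and fold-change ratios were not used. The authors' quality table gives counts of detected probe sets and the actin ratio. The genome build is not given in the sources used here.

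The members and gene lists were chosen with earlier results of these data known. A gene was represented by its probe set with the highest mean, preferring sets not marked as cross-hybridizing, and tested if above the array median on at least 2 arrays, which kept 14771 of 19539 genes. The model was fitted by limma (version 3.58.1, R version 4.3.3; lmFit, eBayes with trend, 17 residual degrees of freedom, Benjamini-Hochberg adjustment over all genes tested at 0.05). SEs are the moderated ones. The p-values measure the spread between arrays, pooled over groups. Scripts were tested on simulated data. The number of arrays limits the precision.

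Genes outside the 9 were named if past the threshold, largest first, up to 6 per comparison, with exceptions stated as chosen later; 1 gene of the rule is not reported here. The experiment numbers in the labels mark shared experiments and so pair the arrays: deviations of same-numbered arrays had a median correlation of 0.152, those of other numbers -0.062. For pairs with an untreated array the medians were 0.033 and -0.016, so the labels hardly paired these. The main fit did not use the pairing, which entered only as an alternative. Promoters came from the RefSeq table, and motifs were searched in 250 bases before each start on both strands. Alternatives were the experiment as a block, filters, normalization, offsets, variance models, probe set rules, thresholds, leaving out arrays marked r, a fit on the groups compared only, and leaving out each array.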

Additional observations from a re-analysis of the deposited data

Results flagged for a closer look

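For 8 genes outside the 9, the change at 72 h differed from that at 24 h by a test of the difference itself (limma, adjusted p under 0.05). The log2 difference, 72 h minus 24 h, was 0.29 for TSPAN3, 0.67 for TSPAN10, -1.29 for TSPAN15, -0.76 for TSPAN18 and -1.23 for UPK1B among the other family genes. It was -0.93 for the integrin ITGA3, -1.80 for the integrin ITGB4 and 0.20 for the adapter SDCBP among the partner genes. ITGB4, TSPAN15 and TSPAN18 were above their untreated mean at 24 h and below it at 72 h. None of them passed the test against untreated cells at both times. TSPAN15 and TSPAN18 did not pass at 24 h (0.48 and 0.06, limma, adjusted p of 0.097 and 0.87). ITGB4 did not pass at 72 h (-0.22, limma, adjusted p = 0.41). Without the 3 arrays marked r, TSPAN3, TSPAN10, TSPAN18, UPK1B and SDCBP no longer passed (limma, adjusted p of 0.34, 0.21, 0.33, 0.19 and 0.47). Leaving out one array at a time, TSPAN18 also lost its call for every array compared but the 72 h array of experiment 2. SDCBP lost its call without the 24 h array of experiment 3 or the 72 h array of experiment 2 or 3 (limma, adjusted p of 0.12, 0.063 and 0.14).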

How the results depend on the processing

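No gene called outside the 9 changed direction under the alternatives run, several of which could not alter a direction, as given below. Other family genes called at 24 h numbered 13, and 7 with a change of at least 2-fold also required; at 72 h they numbered 14, and 7 with that requirement. At 4 h the 3 became 1 with an adjusted p under 0.01, 1 with at least 2-fold and 1 in a fit on only the groups compared. For 72 h against 24 h the 5 became 2 with at least 2-fold, 8 on only the groups compared, 8 with the experiment as a replicate block, 8 with that block and untreated arrays 2 and 3 exchanged (added after seeing the data) and 1 without the arrays marked r. Partner genes at 72 h numbered 12, and 5 with at least 2-fold. The cause was not tested where the fit changed. The replicate block moved no other of these counts by over 1.5 times. With each array left out in turn, the counts ran from 16 to 17 at any time, 1 to 4 at 4 h, 11 to 13 at 24 h, 12 to 14 at 72 h, 4 to 5 for 72 h against 24 h, and 11 to 12 for the partner genes. Over all genes tested, calls at 72 h ran between 1690 and 6688, and at 24 h between 1651 and 6046. The differences of the 9 genes at 24 and 72 h kept their sign in all 19 alternatives, except CD9, which kept it in 16 at 24 h and in 18 at 72 h. Changes of filter, variance model or groups fitted, median centring and the replicate block leave a difference of these group means as it was. A sign could thus change only under the other alternatives, and the counts out of 19 include some that could not differ. Weak signals limit the fold changes of TM4SF18, TSPAN1 and TM4SF20 at late times, which grow when the offset is removed: that of TM4SF20 at 72 h was then -6.72.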
